A study of Mus musculus with 8 samples.

Results

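The genes described here are 36 genes of the core autophagy machinery of the mouse, out of 55401 genes in the count table. They were listed by symbol from their known roles, with earlier results of these data known: 5 genes of the ULK1 initiation complex, 5 of the autophagy PI3-kinase complexes, 5 of lipid supply to the growing membrane, 7 of the conjugation systems, 4 ATG4 proteases, 5 proteins of the LC3 and GABARAP family, and 4 cargo receptors with Pink1. Sqstm1 was not among them and is described near the end with the other genes of the pathway. All 36 passed the filter on low counts, and the lowest count of any of them in any library was 296.

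The cells were bone marrow-derived macrophages (BMDM), grown in culture from mouse bone marrow, and total RNA was sequenced. All animals carried Mettl3 alleles flanked by loxP sites (Mettl3fl/fl). METTL3 is the catalytic subunit of the enzyme that writes N6-methyladenosine on mRNA. Cells of Lyz2-Cre-Mettl3fl/fl mice are called KO here and cells of Mettl3fl/fl mice, which lack Cre, are called WT. Myeloid cells use the Lyz2 promoter that drives Cre, and because WT cells carry no Cre, effects of Cre itself and of the loss of Mettl3 cannot be told apart. Each genotype was sequenced after PBS and after overnight LPS at 50 ng/ml followed by nigericin at 10 µM for 3 h per the sample labels, where the text of the series names 1 h or 3 h. LPS, a bacterial wall component, primes macrophages through Toll-like receptor 4, and nigericin, a potassium ionophore, then triggers the NLRP3 inflammasome. There were 2 libraries per group and 8 in all, with 55032057 to 65487739 counts each. Whether the 2 libraries of a group stand for different mice or cultures is not stated, so every p-value reflects only how much these libraries vary, possibly for technical reasons. The labels give no age or sex of the mice.

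In autophagy a double membrane closes around cytoplasm or a marked cargo and delivers it to lysosomes. The ULK1 kinase complex starts the process, a PI3-kinase complex marks the site with a phospholipid that WIPI proteins read, ATG2 and ATG9A bring in lipid, and 2 ubiquitin-like conjugation systems attach LC3 and GABARAP proteins to the membrane, where cargo receptors bind them. In macrophages, autophagy is known for removing damaged mitochondria and bacteria and for holding back inflammasome activity.

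Mettl3 itself was at 13.6 and 13.3 CPM (counts per 1000000 counts of the library, scaled for composition) in WT with PBS and at 28.2 and 23.4 CPM in stimulated WT, against 5.63 and 6.33 CPM and 9.08 and 7.87 CPM in the KO groups. It was lower in KO, as the labels say, by -1.17 on the log2 scale with PBS (adjusted p = 0.0143, edgeR) and -1.61 after stimulation (adjusted p = 0.00283), while transcripts of the gene remained detectable in KO. The PBS call was lost without any 1 of the 4 PBS libraries (adjusted p up to 0.0805). All 9 macrophage markers were detected, and their sum without Lyz2, the gene whose promoter drives Cre, was 10050 to 10430 CPM in WT and 10290 to 10620 CPM in KO with PBS, and 13580 to 14060 and 12280 to 12810 CPM after stimulation. With Lyz2 included, the sum was lower in KO, at 42800 to 45830 CPM in WT and 27070 to 28130 CPM in KO with PBS. After stimulation it was 45800 to 48480 CPM in WT and 27030 to 28210 CPM in KO. Among the markers of other cells, Ly6g of neutrophils, Flt3 of dendritic cells and Cd3e of T cells were at 0 in every library. Other markers on the same lists were detected, as given below. The 8 fibroblast and stromal markers, all detected, summed to 177 to 198 CPM (WT, PBS), 127 to 130 (WT, stimulated), 276 to 295 (KO, PBS) and 329 to 368 (KO, stimulated). The 8 markers of neutrophils (5 detected) summed to 3.55 to 3.85, 27.9 to 35.6, 5.43 to 5.75 and 30.3 to 33.6 CPM in the same order, and the 6 of dendritic cells (4 detected) to 219 to 231, 236 to 240, 260 to 288 and 139 to 146. The 6 markers of T and NK cells (1 detected above the filter) summed to 0.409 CPM at most, the 4 of mast cells and basophils (1 detected) to 0.639 at most, and the 6 of erythroid cells and megakaryocytes (3 detected) to 14.4 to 20.3 in all 8 libraries. The 5 nuclear transcripts taken as a sign of RNA quality (4 detected) summed to 713 to 902, 397 to 813, 546 to 650 and 457 to 474 CPM. The part of these markers in the differences below was not tested.

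Promoter sequence was in hand for 30 of the 36 genes, in 34 windows from 250 bases before to 50 bases after an annotated start (RefSeq, GRCm38.p6). The 100 bases before the outermost annotated start are printed for 3 of the genes that fell more than 2-fold in both genotypes, the gene with the largest rise in both, and 2 conjugation genes whose windows hold the letters CACGTG, which are in capitals. CACGTG is the core of the motif bound by TFEB and its relatives, known regulators of autophagy and lysosome genes. The stretches are chr4:138326308-138326407 (minus strand) for Pink1, chr6:129533060-129533159 (plus) for Gabarapl1, chr15:102722179-102722278 (minus) for Calcoco1, chrX:140956807-140956906 (plus) for Atg4a, chr10:44268239-44268338 (plus) for Atg5 and chr16:45158685-45158784 (plus) for Atg3. Each is written 5′ to 3′ along the strand of its gene.
Pink1: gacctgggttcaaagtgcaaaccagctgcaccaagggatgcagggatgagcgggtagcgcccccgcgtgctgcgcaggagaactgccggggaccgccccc
Gabarapl1: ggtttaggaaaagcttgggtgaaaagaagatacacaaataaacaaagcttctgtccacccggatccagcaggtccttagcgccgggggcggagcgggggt
Calcoco1: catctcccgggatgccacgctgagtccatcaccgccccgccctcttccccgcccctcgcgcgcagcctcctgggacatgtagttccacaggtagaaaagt
Atg4a: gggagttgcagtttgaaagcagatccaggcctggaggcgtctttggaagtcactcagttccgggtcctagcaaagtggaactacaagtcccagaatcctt
Atg5: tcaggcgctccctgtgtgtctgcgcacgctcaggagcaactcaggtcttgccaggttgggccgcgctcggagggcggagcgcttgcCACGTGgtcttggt
Atg3: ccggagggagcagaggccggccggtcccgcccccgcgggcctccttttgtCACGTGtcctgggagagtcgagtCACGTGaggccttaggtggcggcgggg

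CACGTG was found in 4 of the 34 windows (11.8%), those of Atg3 with 2 matches, Atg5, Atg7 and Atg14, against 7.15% of all 32851 windows of the same length. The sequence reads the same on both strands. The Atg7 window (chr6:114670846-114671145) lies inside the gene, whose outermost annotated start is at 114643097. The Atg14 window (chr14:47568385-47568684) also lies inside its gene, whose outermost start on the minus strand is at 47570649. TGTTTAC, a motif of FOXO factors searched on both strands, was in 0 of the 34 windows, against 3.65% of all windows. Of the 4 genes with CACGTG, Atg5 rose and Atg7 fell with stimulation in both genotypes, and Atg3 and Atg14 passed edgeR's test in no comparison (DESeq2 and limma-voom called Atg3 higher in WT, and Atg14 was called lower in WT with library size alone or only the groups compared). A match describes these letters only.

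The first question was how stimulation changed these genes. In WT, 20 of 36 were lower and 5 higher after LPS and nigericin at an adjusted p below 0.05, with 20.0% and 20.6% of all 17470 tested genes called in these directions and 40.5% in either. In KO, 21 were lower and 6 higher, against 19.0% and 20.2% of all tested genes and 39.1% in either direction. The median log2 change of the 36 was -0.47 in WT and -0.35 in KO, beside -0.01 and -0.03 over all tested genes. The same 20 genes fell and the same 5 rose in both genotypes. Wipi1 (lower) and Atg9a (higher) passed edgeR's test in KO and not in WT, and 9 genes passed it in no comparison. Of those 9, DESeq2 called Atg3 in WT and Atg4d in KO, and limma-voom called Atg3 in WT and Atg4b in KO. Among the 10591 genes that reached 5 CPM in at least 2 libraries, all 36 included, 28.1% were lower and 27.9% higher in WT, where 21 of the 36 were lower, Wipi1 now among them, and 5 higher. In KO the shares were 27.1% and 28.5%, with 21 of the 36 lower and 8 higher, Atg4b and Atg4d now among them. Both responses are read against their own PBS libraries, and in bulk RNA fewer cells of a type and less RNA per cell cannot be told apart. No group received LPS alone or nigericin alone, so the effects of the 2 agents cannot be told apart either.

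**Figure D1:**
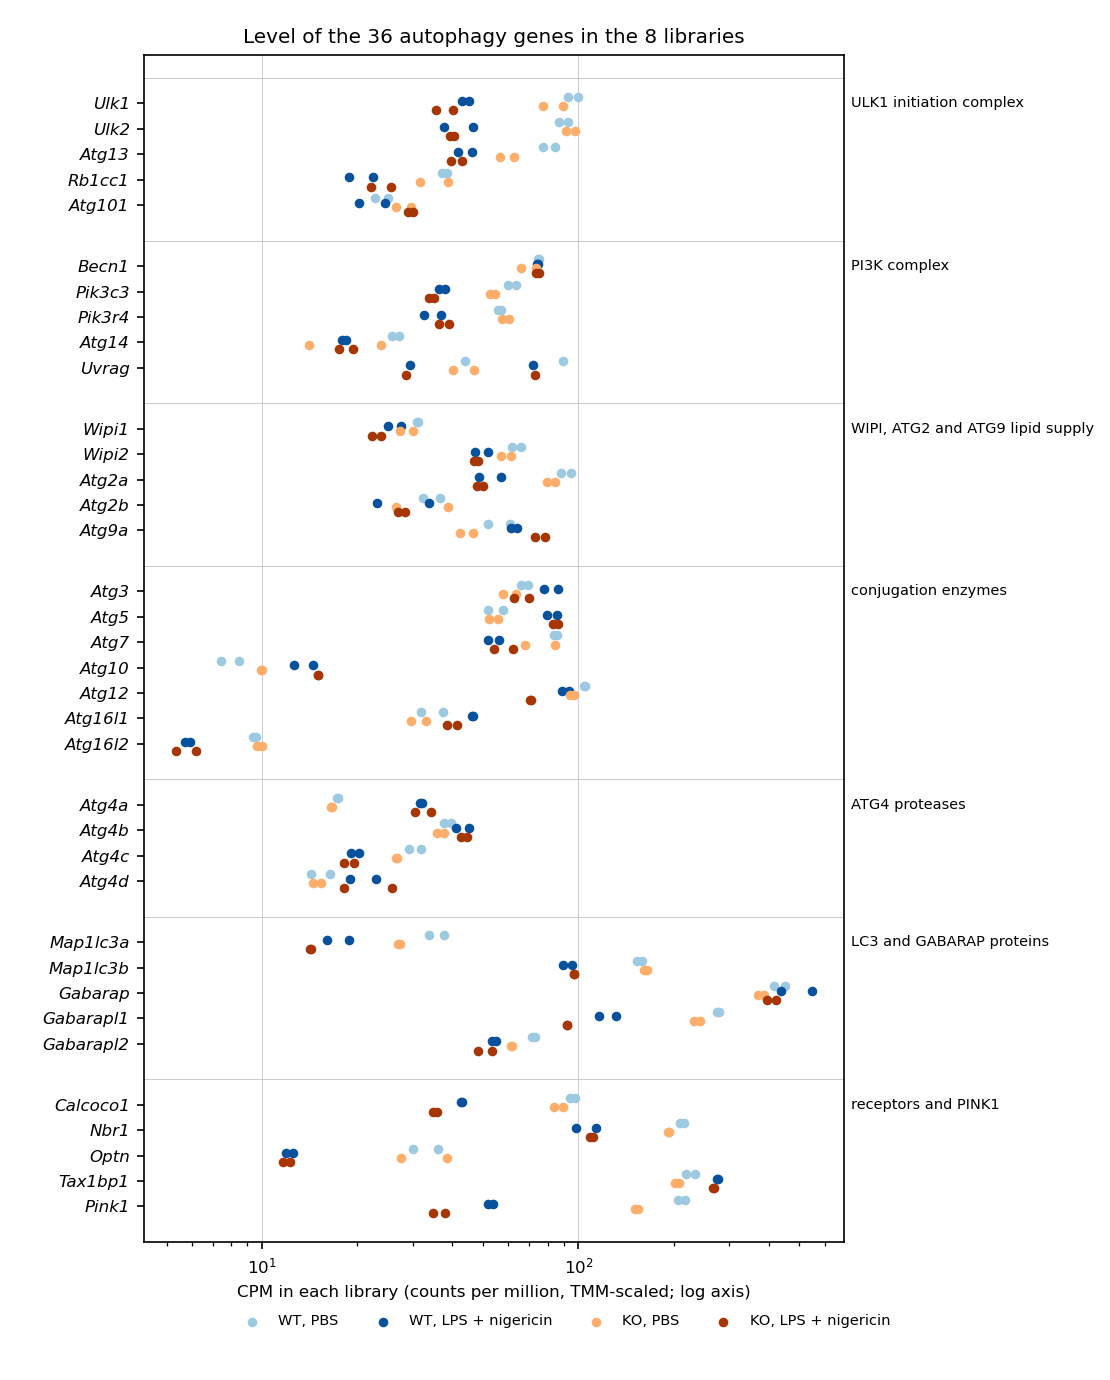
Level of the 36 autophagy genes in each of the 8 libraries, in CPM on a log axis, ordered by role; each point is 1 library and colours mark the 4 groups. Pink1, Optn, Calcoco1, Gabarapl1 and Ulk1 lie lower in the stimulated libraries of both genotypes, Atg4a, Atg5 and Atg10 lie higher, and the 8 points of Becn1 fall between 65.9 and 75.2 CPM.

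**Figure D2:**
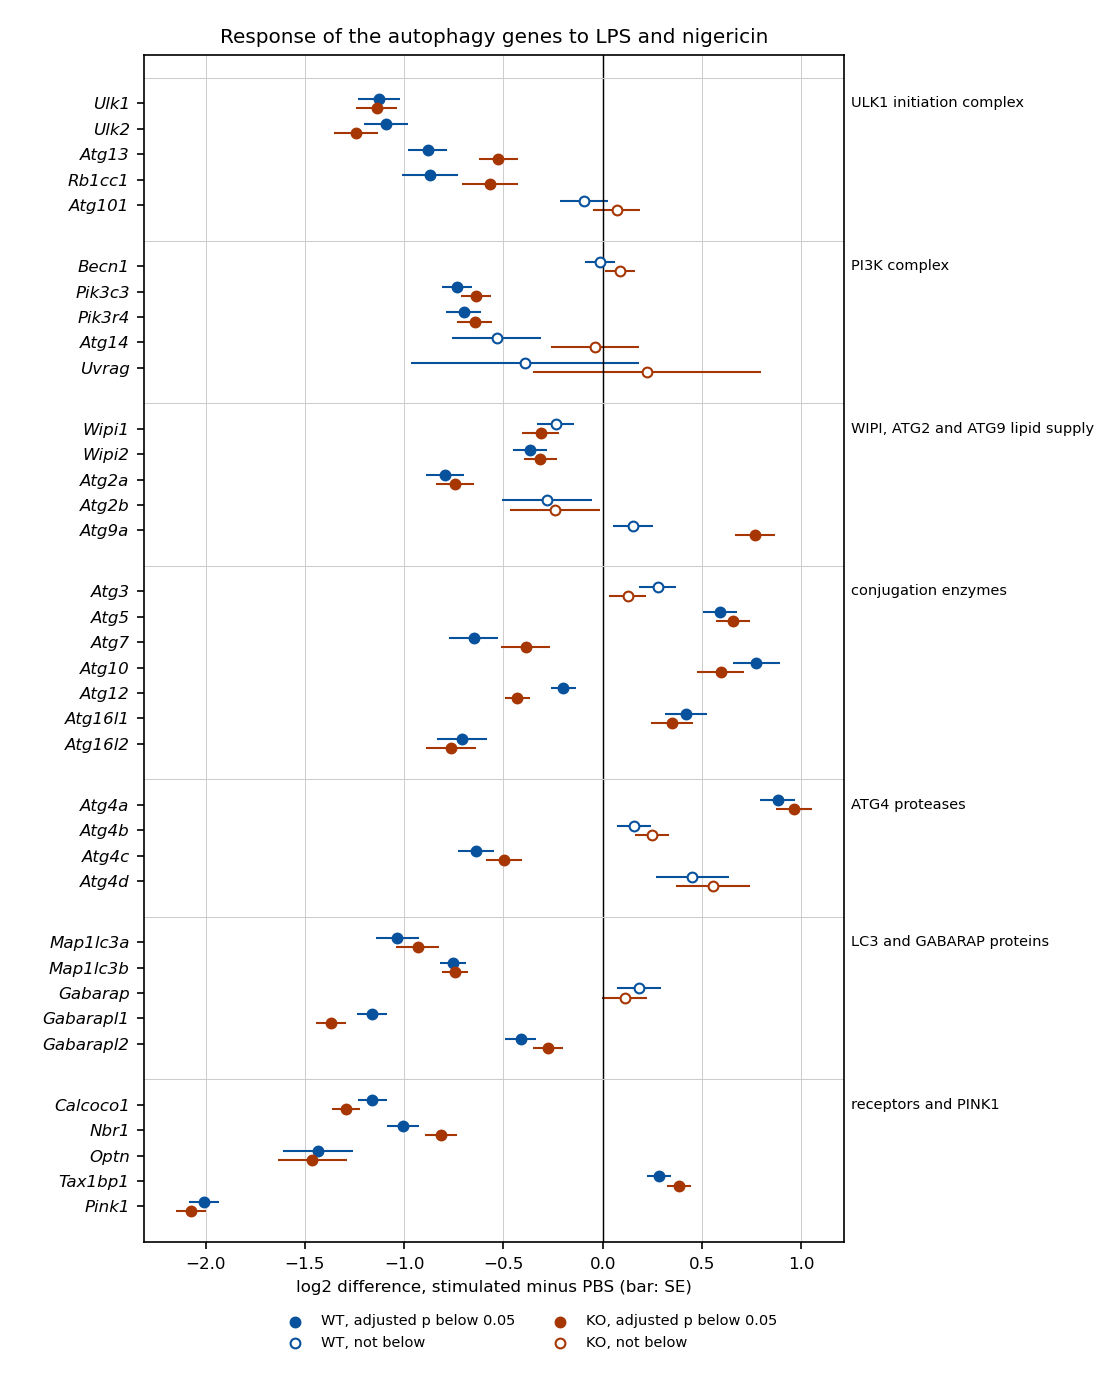
Log2 change with LPS and nigericin in WT and in KO for each of the 36 genes, with bars of 1 standard error and filled points for an adjusted p below 0.05. The changes run from -2.01 to 0.88 in WT and from -2.07 to 0.96 in KO, with Pink1 lowest and Atg4a highest in both.

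The ULK1 complex was lower in 4 of its 5 members in both genotypes. Ulk1, the kinase that starts autophagosome formation, was at 99.5 and 93.1 CPM in WT with PBS, 45.2 and 43.0 in stimulated WT, 89.5 and 77.1 in KO with PBS and 40.3 and 35.4 in stimulated KO. Every stimulated library was below every PBS library, and the log2 change was -1.13 ± 0.10 (SE) in WT (adjusted p = 0.000206) and -1.14 ± 0.10 in KO (adjusted p = 0.000198). Ulk2, a related kinase, went from 86.9 and 92.5 to 46.5 and 37.7 CPM in WT and from 91.2 and 97.7 to 39.4 and 40.5 CPM in KO. Its log2 changes were -1.09 and -1.24 (adjusted p = 0.0003 and 0.000165). Atg13, the adaptor that joins the kinase to its partners, went from 77.5 and 84.4 to 46.3 and 41.6 CPM in WT and from 56.6 and 62.4 to 39.6 and 43.0 CPM in KO. The stimulated levels of the genotypes overlap, and both PBS libraries of KO lie below those of WT. The changes were -0.88 ± 0.10 in WT (adjusted p = 0.000464) and -0.53 ± 0.10 in KO (adjusted p = 0.00506). Rb1cc1, which encodes the scaffold FIP200, went from 38.5 and 37.1 to 22.5 and 18.9 CPM in WT and from 38.9 and 31.7 to 22.1 and 25.5 CPM in KO. PBS and stimulated libraries did not overlap in either genotype, with changes of -0.87 (adjusted p = 0.00273) and -0.57 (adjusted p = 0.0174). The KO call for Rb1cc1 was lost without KO PBS replicate 1 (adjusted p = 0.0955) or stimulated KO replicate 1 (adjusted p = 0.106). Atg101, which stabilises ATG13, has the highest level per kb of the complex and passed in neither genotype. It was at 25.1 and 22.8 and then 20.3 and 24.5 CPM in WT, and at 29.6 and 26.6 and then 30.0 and 29.0 CPM in KO.

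Of the PI3-kinase genes, 2 of 5 were lower in both genotypes and none was higher. Pik3c3, the catalytic subunit VPS34, was at 60.0 and 63.5 CPM in WT with PBS and 37.8 and 36.3 after stimulation, and at 52.4 and 54.5 and then 35.0 and 33.6 CPM in KO. Pik3r4, its regulatory partner VPS15, was at 55.8 and 57.1 and then 36.8 and 32.6 CPM in WT, and at 57.5 and 60.2 and then 39.0 and 36.4 CPM in KO. PBS and stimulated libraries of these 2 subunits did not overlap. Pik3c3 changed by -0.74 ± 0.07 in WT (adjusted p = 0.000317) and -0.64 ± 0.07 in KO (adjusted p = 0.000618), and Pik3r4 by -0.70 ± 0.09 (adjusted p = 0.000855) and -0.64 ± 0.09 (adjusted p = 0.00128). Becn1, the scaffold of the complex, was at 74.5 and 75.2 and then 74.1 and 74.4 CPM in WT, and at 73.6 and 65.9 and then 74.96 and 73.2 CPM in KO. Its log2 change was -0.01 in WT (95% interval -0.19 to 0.17) and 0.09 in KO (-0.09 to 0.27). Exons of Becn1 overlap those of Cntd1 on the other strand over 43.9% of their bases, but Cntd1 was at no more than 0.322 CPM. Atg14, which directs the complex to autophagosomes, ranged from 14.1 to 27.1 CPM. Uvrag, which belongs to a second complex on endosomes, ranged from 28.6 to 89.2 CPM, and neither passed edgeR's test in any comparison.

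Among the lipid supply genes, Atg2a and Wipi2 were lower in both genotypes. Atg2a, a lipid transfer protein, was at 94.9 and 88.2 CPM in WT with PBS, 57.0 and 48.7 after stimulation, 84.5 and 79.5 in KO with PBS and 50.1 and 47.8 after stimulation. The change was -0.79 ± 0.10 in WT (adjusted p = 0.000725) and -0.74 ± 0.10 in KO (adjusted p = 0.000985), with no overlap. Wipi2, a phospholipid reader that recruits ATG16L1, was at 66.1 and 61.5 and then 47.2 and 51.8 CPM in WT, and at 61.1 and 57.1 and then 46.7 and 48.3 CPM in KO. The falls were smaller than for Atg2a, -0.37 (adjusted p = 0.0122) and -0.32 (adjusted p = 0.0228). Wipi1, a related reader, was at 31.1 and 30.9 and then 25.02 and 27.6 CPM in WT, and at 29.9 and 27.4 and then 22.3 and 23.8 CPM in KO. Its changes were -0.24 ± 0.09 in WT (adjusted p = 0.0872) and -0.31 ± 0.09 in KO (adjusted p = 0.0362), and the difference of the responses was -0.08 (95% interval -0.39 to 0.24). Wipi2 lost its call without WT PBS replicate 1 (adjusted p = 0.0815) or stimulated WT replicate 1 (0.0519), and in KO without KO PBS replicate 1 (0.117), stimulated KO replicate 1 (0.127) or replicate 2 (0.0867). Wipi1 lost its KO call without any 1 of both WT PBS and all 4 KO libraries (adjusted p 0.0569 to 0.183). Atg2b, a paralog of Atg2a, ranged from 23.1 to 38.6 CPM and passed edgeR's test in no comparison.

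Atg9a, the membrane protein that scrambles lipids on vesicles which seed the autophagosome, was at 61.0 and 51.8 CPM in WT with PBS and 61.4 and 63.8 after stimulation. In KO it was at 42.4 and 46.4 CPM with PBS and 78.2 and 72.7 after stimulation. KO thus held the lowest libraries with PBS and the highest after stimulation. The change was 0.77 ± 0.10 in KO (adjusted p = 0.0011) and 0.15 ± 0.10 in WT (adjusted p = 0.281). The difference of the 2 responses was 0.62 ± 0.14 and did not pass (adjusted p = 0.174, edgeR), while DESeq2 gave 0.62 with an adjusted p of 0.0194. Atg9a lies at chr1:75180860-75192196 on the minus strand (GRCm38), and 31.8% of its exon bases are shared on the same strand with the transcript Gm29253. Gm29253 was at 8.50 and 2.52 CPM in KO with PBS and at 0.036 CPM or less in all other libraries. With the Gm29253 counts added to Atg9a, the KO change was 0.60 (adjusted p = 0.00274) and the difference of responses 0.45 (adjusted p = 0.278).

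The conjugation enzymes were split, with 3 of 7 higher and 3 lower in both genotypes. Atg5, whose product is joined to ATG12, was at 51.9 and 57.7 CPM in WT with PBS, 79.5 and 85.4 after stimulation, 52.1 and 55.9 in KO with PBS and 86.5 and 83.4 after stimulation. The rise was 0.59 ± 0.09 in WT (adjusted p = 0.00163) and 0.65 ± 0.09 in KO (adjusted p = 0.00102), with no overlap. Atg10, the E2-like enzyme that makes this bond, was at 7.44 and 8.45 and then 12.7 and 14.5 CPM in WT, and at 9.94 and 10.0 and then 15.02 and 15.1 CPM in KO. It rose by 0.77 ± 0.12 in WT (adjusted p = 0.00215) and 0.59 ± 0.12 in KO (adjusted p = 0.007). Atg16l1, which places the ATG12-ATG5 conjugate on the membrane, was at 37.2 and 31.9 and then 46.0 and 46.4 CPM in WT, and at 33.1 and 29.7 and then 41.4 and 38.6 CPM in KO. Stimulated libraries lay above PBS libraries in each genotype, with rises of 0.42 (adjusted p = 0.0179) and 0.35 (adjusted p = 0.0367). The WT call for Atg16l1 was lost without WT PBS replicate 2 (adjusted p = 0.106) or either stimulated WT library (0.0542 and 0.0668), and with library size as the only scaling both of its calls were lost. Its KO call was lost without stimulated WT replicate 1 or any 1 of the 4 KO libraries (adjusted p 0.0542 to 0.18).

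The 3 conjugation genes that fell were Atg7, Atg12 and Atg16l2. Atg7, the shared E1-like enzyme, was at 85.7 and 83.7 CPM in WT with PBS and 56.2 and 51.7 after stimulation, and at 67.9 and 84.4 and then 54.1 and 62.4 CPM in KO. The fall was -0.65 ± 0.12 in WT (adjusted p = 0.00559) and -0.39 ± 0.12 in KO (adjusted p = 0.0447), and the KO call held in 1 of 8 fits with 1 library left out (adjusted p up to 0.224; the exception was the fit without KO PBS replicate 1). Atg12, the ubiquitin-like protein joined to ATG5, was at 104.8 and 104.5 and then 89.1 and 93.4 CPM in WT, and at 96.9 and 93.9 and then 71.1 and 70.6 CPM in KO. Stimulated KO libraries were the lowest of the 8. The change was -0.20 ± 0.06 in WT (adjusted p = 0.0439) and -0.43 ± 0.06 in KO (adjusted p = 0.00183), and the difference of responses was -0.23 (adjusted p = 0.418). The WT call for Atg12 held in 1 of 8 fits, that without stimulated WT replicate 2 (adjusted p up to 0.164 in the others). Atg16l2, a paralog of Atg16l1, was at 9.59 and 9.40 and then 5.91 and 5.71 CPM in WT, and at 9.65 and 10.0 and then 5.36 and 6.21 CPM in KO. It fell by -0.71 ± 0.12 (adjusted p = 0.00401) and -0.76 ± 0.12 (adjusted p = 0.00292). Atg3, the E2-like enzyme for LC3, was at 66.1 and 69.3 and then 78.1 and 86.0 CPM in WT, and at 57.7 and 63.7 and then 62.5 and 69.9 CPM in KO. It has the highest level per kb of the conjugation genes and missed the threshold, with changes of 0.28 in WT (adjusted p = 0.0538) and 0.13 in KO (adjusted p = 0.344).

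The ATG4 proteases trim LC3 proteins before conjugation and later release them from the membrane. Atg4a was at 17.4 and 17.2 CPM in WT with PBS and 31.7 and 32.1 after stimulation, and at 16.6 in both KO libraries with PBS and 30.6 and 34.2 after stimulation. The rise was 1.84-fold in WT (log2 0.88 ± 0.09, adjusted p = 0.000295) and 1.95-fold in KO (log2 0.96 ± 0.09, adjusted p = 0.000193), the largest among the 36 genes in both. Atg4c moved the other way, from 29.2 and 31.9 to 19.1 and 20.2 CPM in WT and from 26.7 and 26.5 to 18.2 and 19.5 CPM in KO. Its changes were -0.64 ± 0.09 (adjusted p = 0.00152) and -0.50 ± 0.09 (adjusted p = 0.00487). Atg4b, at 35.7 to 45.2 CPM, and Atg4d, at 14.3 to 25.8 CPM, passed edgeR's test in no comparison. In KO, Atg4b was called higher by limma-voom, Atg4d by DESeq2, and both with the filter of 5 CPM. Exons of Atg4d overlap Kri1 on the other strand over 19.3% of their bases, and Kri1 was at 27.3 to 56.3 CPM. The strand setting of the counting was not stated, so counts of Atg4d are uncertain.

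LC3 and GABARAP proteins, the ubiquitin-like proteins attached to the membrane, were lower in 4 of 5 genes in both genotypes. Gabarapl1 (chr6:129533160-129542346, GRCm38, plus strand) was at 275 and 279 CPM in WT with PBS, 131 and 117 after stimulation, 232 and 242 in KO with PBS and 92.2 and 91.8 after stimulation. The 4 groups did not overlap, and the fall was 2.24-fold in WT (log2 -1.16 ± 0.07, adjusted p = 3.42e-05) and 2.58-fold in KO (log2 -1.37 ± 0.07, adjusted p = 1.64e-05). Map1lc3a, one of the LC3 genes, was at 33.8 and 37.6 and then 16.04 and 18.8 CPM in WT, and at 27.4 and 26.9 and then 14.2 and 14.3 CPM in KO. The changes were -1.03 ± 0.11 (adjusted p = 0.000363) and -0.93 ± 0.11 (adjusted p = 0.000609). Map1lc3b, the LC3 form most used as an autophagosome marker, was at 158 and 153 and then 89.3 and 95.4 CPM in WT, and at 161 and 164 and then 97.0 and 96.8 CPM in KO. Its fall was -0.75 ± 0.07 in both genotypes (adjusted p = 0.000139 and 0.000148), with a difference of responses of 0.01 (95% interval -0.21 to 0.23). Gabarapl2 was at 73.0 and 71.2 and then 53.2 and 55.1 CPM in WT, and at 61.7 and 61.2 and then 48.2 and 53.4 CPM in KO. It fell by -0.41 (adjusted p = 0.00498) and -0.28 (adjusted p = 0.0273), and its KO call held in 3 of 8 fits with 1 library left out, being lost without either WT PBS library, either KO PBS library or stimulated KO replicate 1 (adjusted p 0.0524 to 0.182).

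Gabarap, which shares the family's role in membrane closure and cargo binding, did not fall with its relatives. Its libraries held 415 and 451 CPM in WT with PBS and 436 and 547 after stimulation, and 371 and 388 and then 423 and 396 CPM in KO. The changes were 0.18 in WT (95% interval -0.08 to 0.45, adjusted p = 0.237) and 0.11 in KO (-0.15 to 0.38, adjusted p = 0.486). Per kb of exon in its protein-coding transcripts, Gabarap had a mean level of 317 CPM per kb over the 8 libraries, the highest of the 36 genes. Gabarapl1 followed at 90.7, Tax1bp1 at 65.3, Pink1 at 42.5 and Gabarapl2 at 35.6 CPM per kb, and Atg16l2 was lowest at 1.20.

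Cargo receptors link marked cargo to LC3 and GABARAP proteins, and 3 of the 4 were lower in both genotypes. Optn, a receptor for damaged mitochondria and bacteria, was at 35.9 and 30.1 CPM in WT with PBS, 11.9 and 12.5 after stimulation, 38.5 and 27.5 in KO with PBS and 12.3 and 11.6 after stimulation. It fell 2.70-fold in WT (log2 -1.43 ± 0.17, adjusted p = 0.000707) and 2.76-fold in KO (log2 -1.46 ± 0.17, adjusted p = 0.00065). Calcoco1, a receptor for endoplasmic reticulum and Golgi, was at 97.7 and 93.9 and then 43.0 and 42.7 CPM in WT, and at 83.8 and 89.4 and then 34.8 and 35.9 CPM in KO. The libraries of a group lay close together, and the falls were -1.16 ± 0.07 (adjusted p = 2.65e-05) and -1.29 ± 0.07 (adjusted p = 1.64e-05). Nbr1, which binds ubiquitin-marked cargo, was at 216 and 209 and then 113 and 98.2 CPM in WT, and at 194 and 193 and then 108 and 111 CPM in KO. It changed by -1.01 ± 0.08 (adjusted p = 0.000102) and -0.82 ± 0.08 (adjusted p = 0.000279). Tax1bp1, which also restrains NF-kB signalling, rose instead, from 234 and 219 to 273 and 276 CPM in WT and from 202 and 207 to 267 and 268 CPM in KO. The rise was 0.28 ± 0.06 (adjusted p = 0.00924) and 0.39 ± 0.06 (adjusted p = 0.00239). In WT the call for Tax1bp1 was lost without WT PBS replicate 2 (adjusted p = 0.0739) and with library size as the only scaling.

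Pink1, the kinase that marks damaged mitochondria for removal, showed the largest fall of the 36 genes. It lies at chr4:138313409-138326307 on the minus strand (GRCm38). Its level was 207 and 218 CPM in WT with PBS, 53.9 and 51.8 in stimulated WT, 155 and 151 in KO with PBS and 38.0 and 34.7 in stimulated KO. The 4 groups did not overlap. The fall was 4.03-fold in WT (log2 -2.01 ± 0.08, adjusted p = 3.66e-06) and 4.21-fold in KO (log2 -2.07 ± 0.08, adjusted p = 3.39e-06), and both calls held in all 8 fits that left out 1 library.

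**Figure D3:**
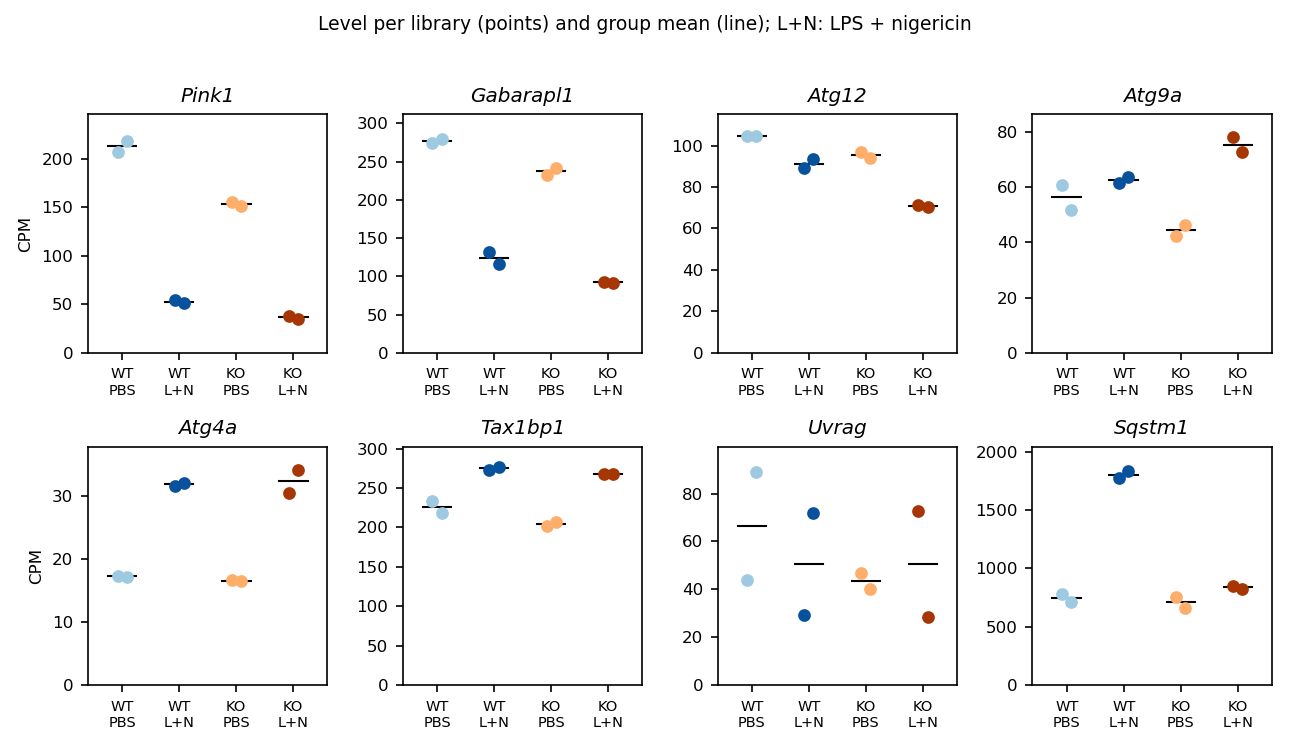
CPM in each library, on separate linear axes, for 7 of the autophagy genes and Sqstm1; each point is 1 library and the line is the mean of the 2 libraries in a group. Pink1 falls from 207 and 218 to 53.9 and 51.8 CPM in WT and lies lower in KO than in WT both with PBS and after stimulation.

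The second question was how the genotypes differed. With PBS, 1 of the 36 genes was lower in KO and 0 were higher, with 0.355% and 1.20% of all tested genes called in these directions and 1.55% in either. The median log2 difference of the 36 was -0.14, beside 0.00 over all tested genes, and 30 of the 36 were negative (49.3% of all tested genes), and 8 reached an unadjusted p below 0.05 (15.4% of all tested genes); limma-voom and DESeq2 also called 0 higher. Among the 10591 genes that reached 5 CPM in at least 2 libraries, 0.85% were lower and 2.4% higher. Of the 36, all at that level, 1 was lower and 0 were higher there. The gene called was Pink1, with both KO libraries (155 and 151 CPM) below both WT libraries (207 and 218 CPM) and a difference of -0.48 ± 0.07 (adjusted p = 0.032). This call held in 2 of 8 fits with 1 library left out: it was lost without any 1 of the 4 PBS libraries (adjusted p 0.124 to 0.17) and without stimulated KO replicate 1 (0.0745) or replicate 2 (0.0737).

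After stimulation, 3 of the 36 were lower in KO and 0 higher by edgeR (0 higher also by limma-voom and DESeq2, and 8 in either direction at an unadjusted p below 0.05, as did 19.9% of all tested genes), with 2.01% and 2.91% of all tested genes called in these directions and 4.92% in either. The median was -0.04, beside 0.00 over all tested genes; with library size alone both medians turned positive, to 0.10 and 0.13. Among the 10591 genes that reached 5 CPM in at least 2 libraries, edgeR called 3.64% lower and 4.92% higher. Of the 36, all at that level, 3 were lower and 0 higher there. DESeq2 called 4 lower, Calcoco1 in addition. Pink1 was at 38.0 and 34.7 CPM in KO and 53.9 and 51.8 in WT, a difference of -0.54 ± 0.07 (adjusted p = 0.0122). Gabarapl1 was at 92.2 and 91.8 CPM in KO and 131 and 117 in WT, a difference of -0.43 ± 0.07 (adjusted p = 0.0259). Atg12 was at 71.1 and 70.6 CPM in KO and 89.1 and 93.4 in WT, a difference of -0.36 ± 0.06 (adjusted p = 0.0273). For each of the 3, both KO libraries were below both WT libraries. Pink1 lost the call without stimulated KO replicate 1 (adjusted p = 0.0592) or replicate 2 (0.0904). Gabarapl1 lost it without either WT PBS library (0.0534 and 0.0596), stimulated WT replicate 1 (0.0558) or either stimulated KO library (0.151 and 0.145). Atg12 lost it in 7 of 8 fits (adjusted p up to 0.168), the exception being the fit without stimulated WT replicate 1. All 3 calls, and that of Pink1 with PBS, were lost when only the groups compared were fitted. With library size as the only scaling, which moves the median of all genes by 0.13 toward KO after stimulation, Gabarapl1 and Atg12 were no longer called and Atg101 was called higher.

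**Figure D4:**
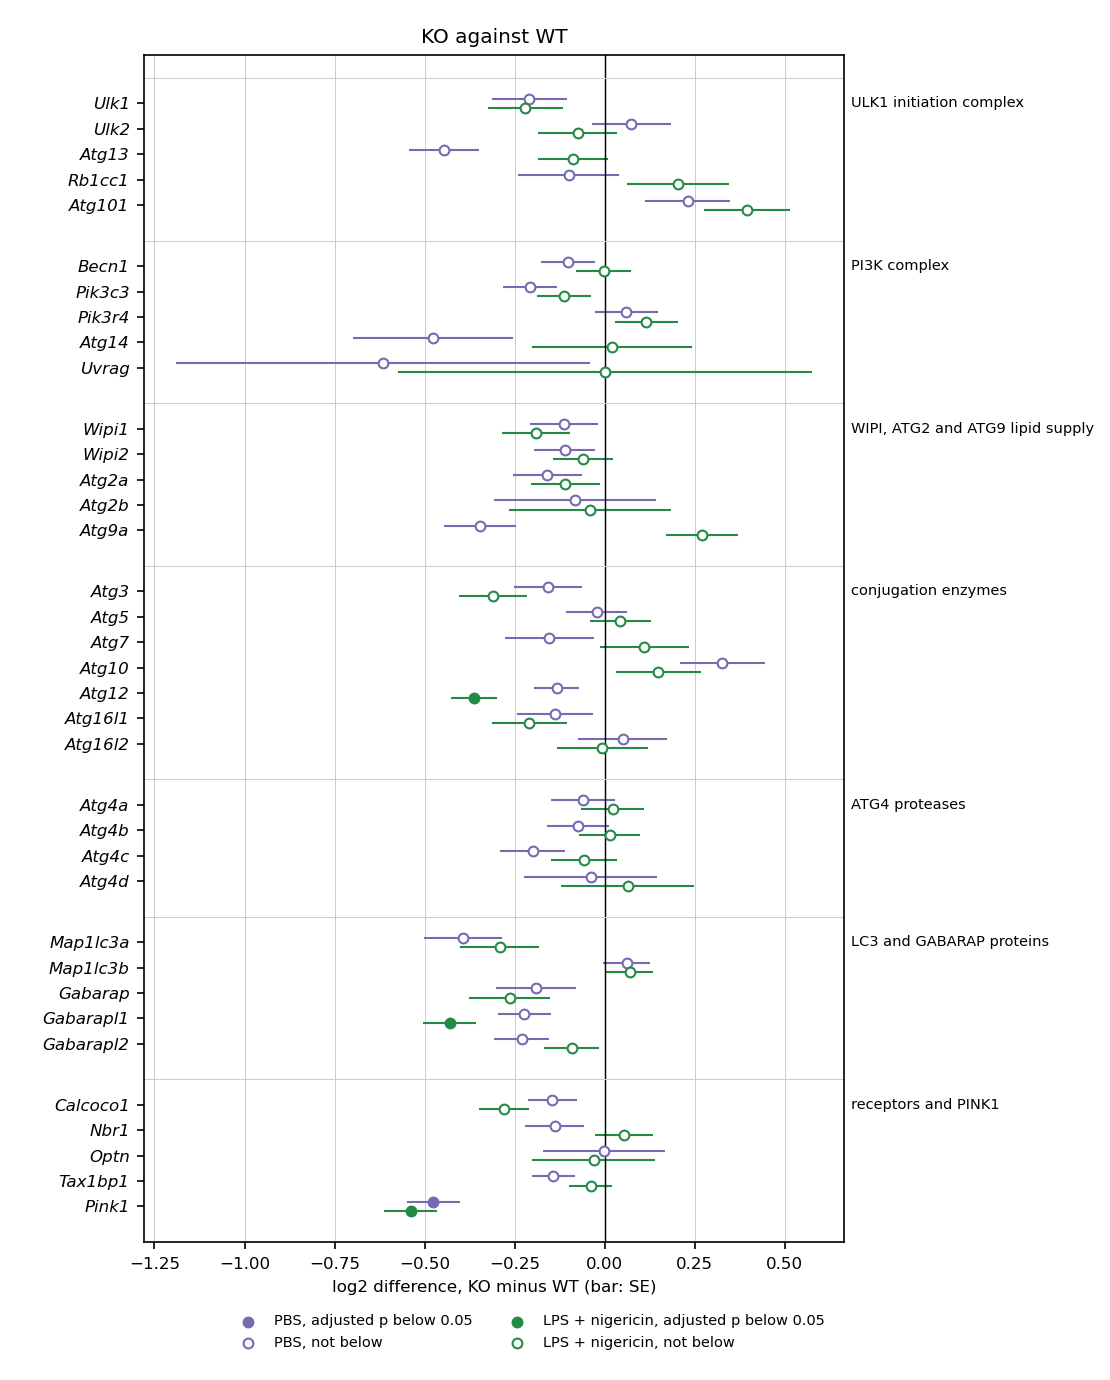
Log2 difference between KO and WT with PBS and after LPS and nigericin for each of the 36 genes, with bars of 1 standard error and filled points for an adjusted p below 0.05. Filled points are Pink1 in both conditions and Gabarapl1 and Atg12 after stimulation, all at negative values.

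The third question was whether the response to stimulation differed between KO and WT. None of the 36 genes passed edgeR's test of the difference of responses, in either direction, with 0.498% of all tested genes called in either direction, 0.103% with a positive and 0.395% with a negative difference. At an unadjusted p below 0.05 there were 3 (Atg13, Atg9a and Atg12) beside 10.7% of all tested genes, limma-voom called 0, and DESeq2 called 1, Atg9a. The median difference was 0.06, beside 0.00 over all tested genes, and the 95% interval included 0 for 33 of the 36. The median distance from the estimate to either end of the interval was 0.32 on the log2 scale before any adjustment for multiple tests. For Atg9a, at 0.62, the interval of 0.275 to 0.956 excluded 0. It did not pass edgeR's test after adjustment over all tested genes (adjusted p = 0.174). For Pink1 the difference was -0.06 (95% interval -0.31 to 0.18) and for Gabarapl1 -0.21 (-0.45 to 0.04). Ulk1 had a difference of -0.01 (-0.36 to 0.34). 

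The libraries of a group lay close together for most of the 36 genes, with a median absolute log2 ratio of 0.085 to 0.126 over the 4 groups, beside 0.151 to 0.209 over all tested genes. The lowest count of the 36 was 296, while the tested genes include some with far lower counts. Spread at matched counts was not tested. Uvrag and, in KO with PBS, Atg14 were the least repeatable.

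**Figure D5:**
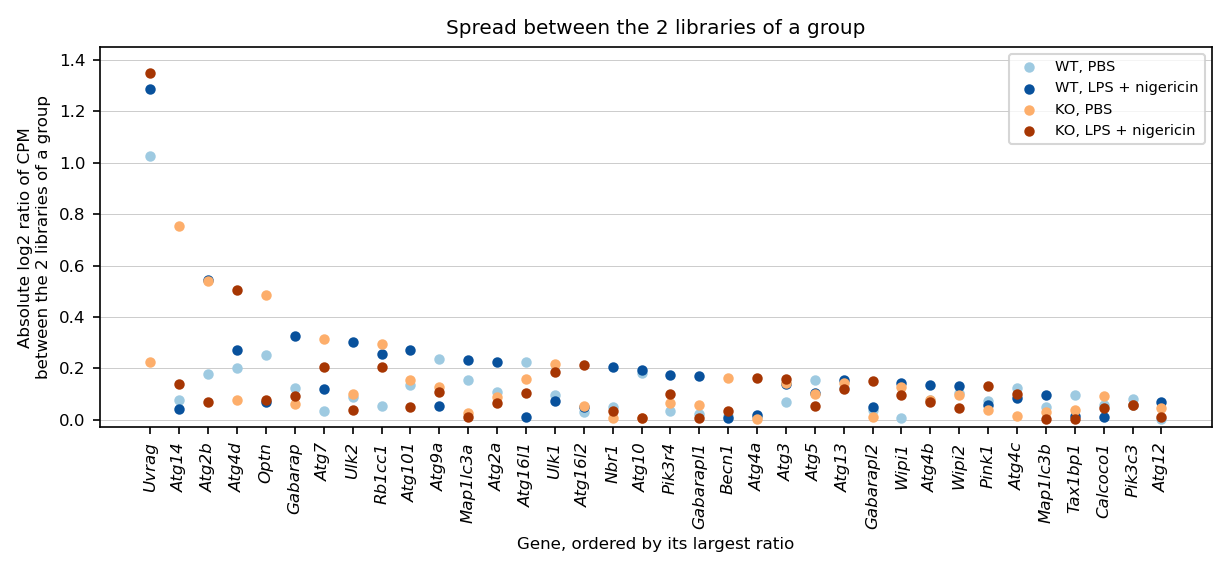
Absolute log2 ratio between the 2 libraries of a group, in each of the 4 groups, for the 36 autophagy genes, ordered by the largest ratio of each; a point is 1 gene in 1 group. The genes' medians lie between 0.085 and 0.126 over the groups, beside 0.151 to 0.209 over all tested genes (not drawn, not matched in level). Uvrag stands apart at 1.03, 1.29 and 1.35 in 3 of the 4 groups.

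The other genes of the pathway were 61 regulators, further receptors and fusion genes, all of which were tested. In WT, 25 were lower and 9 higher after stimulation, beside 20.0% and 20.6% of all tested genes and 40.5% in either direction. In KO, 25 were lower and 5 higher, beside 19.0% and 20.2% of all tested genes and 39.1% in either direction. Among genes that reached 5 CPM in at least 2 libraries, 28.1% were lower and 27.9% higher in WT. In KO these shares were 27.1% and 28.5%. Sesn1, Prkag2, Zfyve1, Wdr45, Retreg1 and Plekhm1 fell in both genotypes, by -2.11 (Sesn1) to -0.98 (Wdr45) in WT and by -2.04 (Sesn1) to -1.15 (Retreg1) in KO on the log2 scale. Tfe3, a relative of Tfeb, changed by 0.23 in WT (adjusted p = 0.0174), while its change in KO was 0.15 (adjusted p = 0.0881) and the difference of responses -0.09. The WT call was lost with only the groups compared, with library size alone (0.05, adjusted p = 0.563), and without WT PBS replicate 1, WT PBS replicate 2 or stimulated WT replicate 2 (adjusted p up to 0.108). Tecpr1, which tethers autophagosomes to lysosomes, was at 268 and 245 CPM in WT with PBS and 49.6 and 50.2 after stimulation, and at 276 and 269 and then 51.5 and 47.7 CPM in KO. Its log2 changes of -2.36 and -2.46 were beside -2.01 and -2.07 for Pink1. Deptor, an inhibitor of mTOR, went from 35.4 and 35.2 to 7.62 and 5.82 CPM in WT and from 32.0 and 33.2 to 5.46 and 5.36 CPM in KO. Tfeb, a transcription factor for autophagy and lysosome genes, was at 44.1 and 47.7 and then 37.6 and 25.4 CPM in WT, and at 61.8 and 72.1 and then 23.9 and 24.6 CPM in KO. Its log2 change was -0.54 in WT (adjusted p = 0.0504) and -1.46 in KO (adjusted p = 0.000854), and the difference of responses was -0.92 (adjusted p = 0.238).

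With PBS, 0 of the 61 genes passed edgeR's test between genotypes, with 8 at an unadjusted p below 0.05 (15.4% of all tested genes), while limma-voom called 1 (Ccpg1) and DESeq2 called 2 (Ccpg1 and Bnip3l). After stimulation edgeR called 5 lower in KO (8.2%) and 2 higher (3.28%), beside 2.01% and 2.91% of all tested genes. Among genes that reached 5 CPM in at least 2 libraries, a level not all of the 61 reached, the shares were 3.64% and 4.92%. DESeq2 called 8 lower, with Prkag2, Wdr45b and Lamp2 added, and limma-voom 6 lower, with Lamp2 added. Each called 2 higher. The 5 lower genes by edgeR were Sqstm1, Sesn2, Mlst8, Akt1s1 and Bnip3l, and the 2 higher genes were Ncoa4 and Bnip3. Sesn2, a stress-induced inhibitor of mTORC1, was at 69.2 and 70.2 CPM in stimulated WT and 34.6 and 33.8 in stimulated KO, a difference of -1.03 ± 0.11 (adjusted p = 0.00611). Ncoa4, the receptor that brings ferritin to autophagosomes, was at 88.9 and 75.1 CPM in stimulated WT and 206 and 187 in stimulated KO, a difference of 1.26 ± 0.14 (adjusted p = 0.00611). Bnip3l, a mitochondrial receptor, was at 137 and 147 CPM in stimulated WT and 96.7 and 97.5 in stimulated KO. Its difference was -0.55 on the log2 scale (adjusted p = 0.00772). The calls of Sesn2 and Bnip3l were lost without stimulated KO replicate 1 or 2 (adjusted p up to 0.0557 and 0.0774), that of Ncoa4 without stimulated KO replicate 1 (0.0505), that of Akt1s1 without stimulated WT replicate 2 (0.0615), and that of Mlst8 without stimulated WT replicate 1 or either stimulated KO library (up to 0.0797). The call of Bnip3 held in 0 of 8 such fits (adjusted p 0.052 to 0.174).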

How the data were processed

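The deposited table holds whole-number read counts per Ensembl gene for 8 libraries, made by the authors from total RNA. The authors' tools, per the submitters' processing notes, were Trimmomatic, Bowtie2 and edgeR with mm10. The counting tool, its annotation and the strand setting were not given in the sources used here. Symbols, exon lengths and positions are from GENCODE M21 (GRCm38). Counts were fitted with edgeR 4.0.16 (R 4.3.3): TMM, filterByExpr (minimum count 10, minimum total 15), 1 coefficient per group, quasi-likelihood F tests with 4 residual degrees of freedom, and Benjamini-Hochberg adjustment over all 17470 tested genes at 0.05. Each SE is the unshrunk log2 change over the root of F. Alternatives were other scalings and filters, DESeq2 1.42.0, limma-voom 3.58.1, only the groups compared, a replicate block, each library left out and, chosen after seeing the data, Gm29253 counts added to Atg9a. Of the 36 genes, those passing edgeR's test on all 8 libraries with TMM, filterByExpr and no block in any comparison have every library given. Those with the highest level per kb of their role also have every library given. Other pathway genes were chosen from those called in a genotype comparison or with the smallest adjusted p per list. The members and lists were chosen with earlier results of these data known. The scripts were tested on simulated data. The result for 1 list of cell type markers is not reported here.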

Additional observations from a re-analysis of the deposited data

Results flagged for a closer look

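Sqstm1, the receptor p62 that links ubiquitin-marked cargo to LC3, was the 1 gene among the 36 autophagy genes and the 61 other pathway genes whose response to stimulation differed between the genotypes by edgeR's test of the difference itself. It was at 778 and 711 CPM in WT with PBS and 1776 and 1834 after stimulation, and at 759 and 662 CPM in KO with PBS and 854 and 821 after stimulation. It rose by 1.28 ± 0.08 on the log2 scale in WT (adjusted p = 3.91e-05), and the change in KO was 0.24 (adjusted p = 0.0609). The difference of the responses was -1.04 ± 0.12 (95% interval -1.32 to -0.76, adjusted p = 0.023). Stimulated WT libraries were the highest of the 8 and did not overlap any other group. The call held in 3 of 8 fits with 1 library left out: it was lost without WT PBS replicate 1 (adjusted p = 0.0595), WT PBS replicate 2 (0.0724), stimulated WT replicate 2 (0.0784), stimulated KO replicate 1 (0.101) or stimulated KO replicate 2 (0.103). Among the 61 other genes limma-voom called Sqstm1 alone, and DESeq2 called 6, which were Sqstm1, Tfeb, Mlst8, Akt1s1, Sesn2 and Ncoa4. Over all tested genes, edgeR called 0.498% in this comparison and DESeq2 called 486 genes. By edgeR, Ncoa4 changed with stimulation by -1.34 in WT and -0.14 in KO, and Akt1s1 by 0.08 and -0.997. Sesn2 changed by 1.27 and 0.32, and Mlst8 by 0.71 and -0.33. The differences between these responses did not pass edgeR's test.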

How the results depend on the processing

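No called value of the 36 genes or of the other named genes changed sign under any alternative run; the median of the 36 after stimulation did, from -0.04 to 0.10 with library size alone. Of 449 refits of the 56 values of the 36 genes under other scalings, filters, tests and designs, 429 kept the call and 20 lost it, and of 448 refits without 1 library 387 kept it and 61 lost it. With library size as the only scaling, 3 of the 36 were higher with stimulation in WT in place of 5, and after stimulation 1 was higher in KO in place of 0 and 1 lower in place of 3. The medians of all genes then moved to -0.20 (WT), -0.11 (KO), 0.13 (genotype after stimulation) and 0.10 (difference of responses), and of all called genes 36.5% were higher with stimulation in WT in place of 50.7%, and 81.6% higher in KO after stimulation in place of 59.1%. With only the groups compared in the fit, 0 were lower in KO both with PBS and after stimulation. That fit had fewer residual degrees of freedom, and its filter, scaling and spread were also estimated anew. DESeq2 called 2 lower in KO with PBS in place of 1 (Atg13 added), 4 lower after stimulation in place of 3 (Calcoco1 added) and 1 in the difference of responses in place of 0. Over all genes it called 876, 1654 and 486 in the genotype comparisons with PBS and after stimulation and in the difference, where edgeR called 271, 860 and 87. With the replicate number as a block, 0 of the 36 were lower in KO with PBS. Deviations of replicate 1 from its group mean had correlations of -0.02 to 0.10 between groups. These values do not tell whether libraries of the same number were paired, which is not stated. Leaving out 1 library at a time gave 3 to 6 higher and 18 to 20 lower in WT, 5 to 7 higher and 16 to 20 lower in KO, 0 to 1 lower with PBS and 0 to 2 lower after stimulation; the fit then has fewer samples, and the lone library of a group is assumed to vary like the others. The causes of these changes were not tested.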

Other observations

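Uvrag, singled out after its values were seen, was the least repeatable of the 36 genes in 3 of the 4 groups. Its libraries held 43.8 and 89.2 CPM in WT with PBS, 29.4 and 71.9 in stimulated WT, 46.8 and 40.0 in KO with PBS and 72.8 and 28.6 in stimulated KO. The libraries of 1 group differed by 1.03, 1.29, 0.23 and 1.35 on the log2 scale in that order, while the next largest ratio among the 36 genes in the first, second and last of these groups was 0.253, 0.542 and 0.504. The antisense gene Gm45187, which covers 17.6% of the exon bases of Uvrag, was at 0.107 CPM or less in every library.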
